A study of Mus musculus with 20 samples.

Results

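The genes described here surround Cyp7b1, the oxysterol 7-alpha-hydroxylase, and the handling of oxidised cholesterol in the mouse knee joint. They are 10 genes named by symbol, and 9 of them had a row among the 14793 genes of the table. These were Cyp7b1, Ch25h, Cyp27a1, Gpr183, Nr1h2, Nr1h3, Rora, Abca1 and Abcg1, while Hsd3b7 was not analysed here. The genes were chosen by measured values of these same joints, because Cyp7b1 had been seen to differ between STING-MSC and control joints, so its values in that comparison are a description and carry no test. Bulk RNA sequencing was performed on whole knee joints of male C57BL/6Nci mice. All had undergone surgical destabilization of the medial meniscus, a model of osteoarthritis, at 12 weeks of age. The paper's methods place the harvest 8 weeks after the operation, though its results give another time. Each of the 4 groups had 5 joints, taken as biological replicates from 10 mice per treatment group. In control joints a needle was inserted and nothing injected. The remaining joints were injected in weeks 3 and 5 after the operation with mesenchymal stromal cells (MSC) grown from adipose tissue of pooled donor mice. These were given either non-activated (MSC), activated with polyinosinic-polycytidylic acid (pIC), a ligand of the double-stranded RNA receptor TLR3 (TLR3-MSC), or activated with 2'3'-cGAMP, the ligand of STING (STING-MSC). Each injection held 250000 cells, and activation used 10 μg/mL of the agonist for 2 h.

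Oxysterols are oxidised forms of cholesterol that act as signals. The enzyme encoded by Ch25h makes 25-hydroxycholesterol and that of Cyp27a1 makes 27-hydroxycholesterol, and Cyp7b1 adds a further hydroxyl group at carbon 7. The 7-alpha,25-dihydroxy product is the ligand of GPR183 (EBI2), a receptor that guides immune cells, and oxysterols also bind the nuclear receptors LXR-alpha (Nr1h3) and LXR-beta (Nr1h2), which drive the cholesterol exporters Abca1 and Abcg1. Rora encodes a related nuclear receptor that binds sterols.

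Each joint had between 27955496 and 52529972 reads on genes, and the group medians lay between 31917015 (STING-MSC) and 42283681 (MSC). The markers listed for chondrocytes (7 genes), synovial fibroblasts (7) and macrophages (8) were all detected, none at 0 in any joint. Skeletal muscle markers, 7 of 7 detected, were present at a mean log2 level of 17.34 ± 0.20 in control, 17.01 ± 0.69 in MSC, 17.14 ± 0.63 in TLR3-MSC and 17.34 ± 0.56 in STING-MSC joints (SD, n = 5). In bulk tissue, fewer cells of a type and less RNA per cell cannot be told apart. Values are read counts divided by a size factor for each joint (normalized counts), and differences between groups are on the scale of log2(normalized count + 1), which understates the change of genes with few reads.

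Cyp7b1 was the lowest of the 9 genes and lay near the bottom of the table, at the 3.79th percentile of mean normalized count over all genes. Its level was highest in control joints and lowest in joints given STING-MSC. In control joints 1 to 5 the normalized counts were 28.6, 23.0, 31.4, 24.7 and 19.7. In MSC joints they were 10.7, 17.7, 18.9, 17.3 and 20.4. In TLR3-MSC joints they were 18.5, 21.8, 14.7, 17.6 and 18.1. All STING-MSC joints were low, at 14.4, 9.79, 7.30, 11.2 and 6.72. The groups' means were thus 25.5 ± 4.61, 17.0 ± 3.70, 18.2 ± 2.53 and 9.89 ± 3.13 (SD, n = 5 each), in the same order. None of the STING-MSC joints reached the lowest control joint or the lowest TLR3-MSC joint, whereas 3 of the 5 lay under all MSC joints. The separation from TLR3-MSC was narrow. Its nearest joints, STING-MSC replicate 1 (14.4) and TLR3-MSC replicate 3 (14.7), held 11 reads each and differed only through their size factors.

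These levels rest on few reads. The control joints held 27, 19, 25, 27 and 29 reads of Cyp7b1, and the STING-MSC joints 11, 8, 7, 9 and 7. Counting alone would give an SD of 5.17 normalized counts in control, 3.90 in MSC, 4.28 in TLR3-MSC and 3.43 in STING-MSC joints, beside the SDs between joints given above. Intervals on reads cover counting error only.

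**Figure D1:**
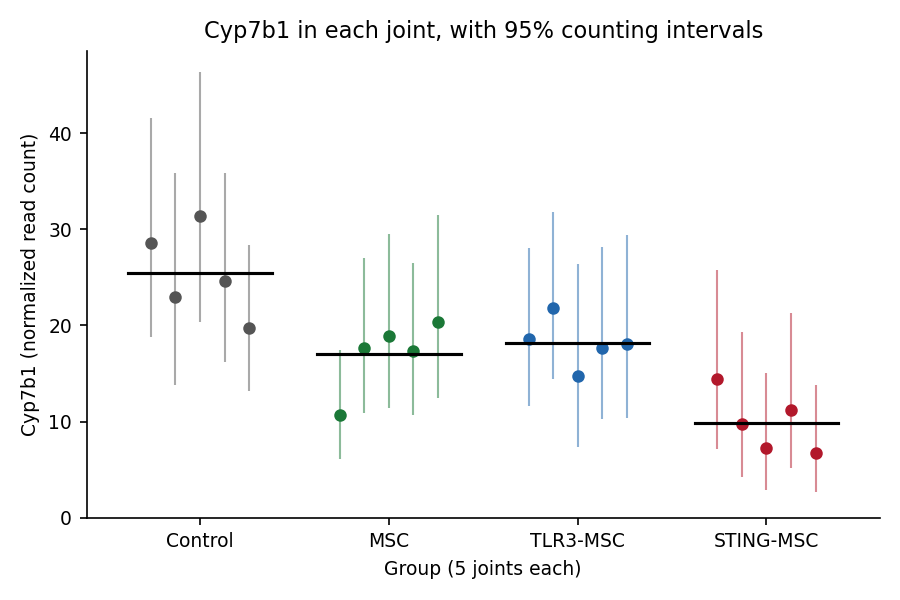
Normalized read count of Cyp7b1 in each of the 20 joints (points), with the 95% exact Poisson interval of its reads (vertical lines) and the group mean (horizontal bars), for groups of 5 joints on the x axis. The 5 STING-MSC joints lie between 6.72 and 14.4, under all control joints, and the intervals of single joints are wide in every group.

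As a description, Cyp7b1 in STING-MSC joints was at 0.403 of its control level, a log2 difference of -1.31, and 5 of 5 joints lay under every control joint. The share of all genes so separated was not computed, so this separation does not set Cyp7b1 apart from other genes. The difference from control was -0.57 for MSC and -0.46 for TLR3-MSC on the log2 scale, with 4 of 5 joints under every control joint in each case. Against the other cell-treated groups, STING-MSC differed by -0.74 from MSC and by -0.85 from TLR3-MSC. These comparisons share the STING-MSC or the control joints that were used to choose the gene. The only comparison that used neither was TLR3-MSC with MSC, where Cyp7b1 differed by 0.11 on the log2 scale (95% interval -0.41 to 0.63; limma, adjusted p = 0.981; exact permutation test, two-sided, p = 0.619). This interval allows from 0.753-fold to 1.55-fold, and 1 of 5 TLR3-MSC joints lay above all MSC joints.

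Levels of markers of other cell types stand beside these values. The 6 neutrophil markers summed to between 270541 and 465335 normalized counts in control, 386958 and 637157 in MSC, 354267 and 559710 in TLR3-MSC, and 390089 and 580387 in STING-MSC joints. Of these, 5 of 6 were higher in STING-MSC and 4 of 6 in MSC than in control joints at an unadjusted limma p of at most 0.05. The share of all genes at that p, in either direction, was 12.2% for STING-MSC, 8.55% for MSC and 3.58% for TLR3-MSC with control. It was 3.88% for TLR3-MSC with MSC and 2.57% for STING-MSC with TLR3-MSC. The 6 endothelial markers summed to between 14079 and 18739 in control, 13113 and 18212 in MSC, 10171 and 15369 in TLR3-MSC, and 11433 and 15586 in STING-MSC joints. By the same measure 3 of 6 were lower in STING-MSC and 1 of 6 in TLR3-MSC than in control joints. Between cell-treated groups, 1 of 6 was lower in TLR3-MSC than in MSC joints, and 1 of 6 was higher in STING-MSC than in TLR3-MSC joints. In the last comparison the median log2 difference of the 6 endothelial markers was -0.10. None of the neutrophil or endothelial markers was at 0 in any joint, and none passed an adjusted p of 0.05. Their part in the values of Cyp7b1 was not tested. Of the remaining lists, 2 of 8 macrophage markers were higher in MSC and in STING-MSC than in control joints. At most 2 markers were called in any comparison among adipocyte, osteoclast and keratinocyte lists, and 0 among B cell, T cell, chondrocyte, synovial fibroblast, osteoblast, skeletal muscle, erythroid and hepatocyte lists. The median log2 difference of synovial fibroblast markers from control was nevertheless -0.33 in MSC, 0.08 in TLR3-MSC and -0.70 in STING-MSC joints. STING-MSC differed in this median by -0.14 from MSC and by -0.52 from TLR3-MSC. The median of the 5 keratinocyte markers differed from control by -0.81 in MSC, 0.82 in TLR3-MSC and -1.68 in STING-MSC joints. It differed by 2.28 between TLR3-MSC and MSC and by -3.28 between STING-MSC and TLR3-MSC, where 2 of 5 were lower. These markers summed to between 253 and 4802 normalized counts in control, 161 and 922 in MSC, 173 and 18256 in TLR3-MSC, and 92.1 and 283 in STING-MSC joints. The part of the synovial fibroblast and keratinocyte markers in the values of Cyp7b1 was likewise not tested.

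Cyp7b1 lies on chromosome 3 of GRCm39, on the minus strand, at chr3:18126114-18297503 in the deposited table. The 250 bases before its start in GENCODE vM39 (chr3:18297741-18297990) are shown because Cyp7b1 is the gene this section turns on. The start in the deposited values, 18297503, lies downstream of the GENCODE vM39 start, 18297740, so the window does not adjoin it. The 250 bases before the start of Abca1 (chr4:53159901-53160150, minus strand) are shown too. Abca1 is an LXR target whose promoter is known to hold an LXR site. Capitals mark matches, in either strand, to AGGTCA, the half-site that nuclear receptors such as ROR and LXR bind, to the E-box CACGTG, or to a looser repeat made of TGACC and AACC with 6 bases between them, chosen after the sequences were seen.
Cyp7b1: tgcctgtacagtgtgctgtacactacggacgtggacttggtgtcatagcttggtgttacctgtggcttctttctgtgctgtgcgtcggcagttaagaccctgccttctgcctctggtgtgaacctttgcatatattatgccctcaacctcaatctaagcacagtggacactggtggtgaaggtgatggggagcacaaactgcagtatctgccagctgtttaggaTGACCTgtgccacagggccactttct
Abca1: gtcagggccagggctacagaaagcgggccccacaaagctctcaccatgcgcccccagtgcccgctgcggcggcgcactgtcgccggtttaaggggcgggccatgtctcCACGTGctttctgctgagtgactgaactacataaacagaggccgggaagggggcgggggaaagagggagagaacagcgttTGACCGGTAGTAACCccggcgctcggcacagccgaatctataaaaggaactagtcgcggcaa
AGGTCA was found in 12.8% of 14770 such windows and, among the 9 genes, in that of Cyp7b1 alone, with its reverse complement ending 21 bases before the GENCODE vM39 start. The looser repeat was found in 28 windows (0.19%), among them that of Abca1. CACGTG was found in 6.7% of windows, among them those of Abca1 and Cyp27a1. TCACNCCAC, a sterol regulatory element, was in 1.1% of windows and in none of the 9, and 2 perfect AGGTCA half-sites in direct repeat with 4 bases between them were in 0 windows. A match describes letters in a window and not a bound site.

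Ch25h, whose transcript is known to be induced by interferon in macrophages, was the most variable of the 9 genes. Its normalized counts were 22.2, 42.3, 95.5, 89.5 and 41.5 in control joints and 26.1, 36.2, 7.96, 6.59 and 46.8 in MSC joints. TLR3-MSC joints held 21.1, 58.2, 49.6, 21.8 and 50.9. STING-MSC joints held 15.7, 20.8, 217.9, 30.0 and 18.2, so that a single joint stood far above all others and 3 of 5 lay under every control joint. The mean was 58.2 ± 32.4 in control and 24.7 ± 17.5 in MSC joints (SD, n = 5), a log2 difference of -1.37 ± 0.67 (SE; limma, adjusted p = 0.595; exact permutation test, two-sided, p = 0.103). Its 95% interval reached from 0.147-fold to 1.02-fold. Between STING-MSC and control the direction depended on the scale. The STING-MSC mean was 60.5 ± 88.2 (SD, n = 5), above that of control, and the log2 ratio of the means was 0.06, as was the DESeq2 difference, with 0.05 in edgeR. On the log2 scale of limma the difference was -0.59 (95% interval -1.99 to 0.80; adjusted p = 0.757), and without STING-MSC replicate 3 it was -1.26, with an unadjusted p under the threshold of 0.05. Between STING-MSC and TLR3-MSC limma gave -0.14, against 0.57 in edgeR and 0.59 in DESeq2. Between TLR3-MSC and MSC it was 0.91 (interval -0.48 to 2.31; limma, adjusted p = 0.978). In the GENCODE annotation, 50.3% of the exon bases of Ch25h lie opposite a non-coding RNA on the other strand, Gm26902. No strand setting is stated for the counting. Whether reads in these bases were counted for Ch25h, for Gm26902 or for neither is therefore not known.

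The mitochondrial sterol 27-hydroxylase Cyp27a1 had similar means in all groups. They were 1395 ± 139.5 in control, 1384 ± 219.9 in MSC, 1396 ± 287 in TLR3-MSC and 1515 ± 311 in STING-MSC joints (SD, n = 5). The difference with the smallest p among the 6 comparisons was 0.12, between STING-MSC and MSC (95% interval -0.18 to 0.43; limma, adjusted p = 0.943). Over all 6 comparisons the intervals lay between 0.798-fold and 1.34-fold. Cyp27a1 shares 32.8% of its exon bases with Prkag3, a kinase subunit gene of skeletal muscle on the opposite strand. Without a stated strand setting, it is not known whether reads in these bases were counted for Cyp27a1, for Prkag3 or for neither. Prkag3 ranged from 1300 to 5466 normalized counts and tracked Cyp27a1 over the 20 joints (Pearson r = 0.80, permutation p = 1e-05; Spearman rho = 0.81, permutation p = 2e-05).

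Gpr183, the receptor for the product of Ch25h and Cyp7b1, ranged from 229 to 402 normalized counts in control, 239.8 to 393 in MSC, 323 to 409 in TLR3-MSC and 287 to 432 in STING-MSC joints. The groups overlapped throughout. Its differences over the 6 comparisons lay between -0.03 and 0.14 on the log2 scale, the latter between TLR3-MSC and control (95% interval -0.20 to 0.47; limma, adjusted p = 0.9997). Changes beyond 0.780-fold or 1.38-fold lay outside the intervals of all comparisons.

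Among the nuclear receptors, Nr1h2 (LXR-beta) was measured most tightly. Its normalized counts were 3294, 3235, 3212, 3118 and 3414 in control and 3514, 3405, 3452, 3342 and 3557 in STING-MSC joints. The groups overlapped, and 3 of 5 STING-MSC joints lay above all control joints. The log2 difference of 0.09 (95% interval -0.03 to 0.21) had an exact permutation p of 0.0238, two-sided, while in limma the unadjusted p was 0.147 and the adjusted p 0.551. Between TLR3-MSC and MSC the difference was 0.00 (interval -0.12 to 0.12). Over the 6 comparisons no interval of Nr1h2 reached beyond 0.922-fold or 1.15-fold.

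Nr1h3 (LXR-alpha), the isoform known from macrophages, adipose tissue and liver, read 757, 671, 657, 642 and 707 in control joints. In MSC joints the normalized counts were 933, 676, 660, 634 and 828, and in TLR3-MSC joints 663, 637, 753, 689 and 658. In STING-MSC joints they were 810.3, 846, 686, 886 and 694. The mean of STING-MSC joints, 784 ± 90.4, lay above that of control, 687 ± 46.0, and of TLR3-MSC, 680.1 ± 44.9, with 3 of 5 joints above all joints of either group. The log2 difference was 0.19 against control (95% interval -0.03 to 0.41; limma, adjusted p = 0.488; exact permutation test, two-sided, p = 0.0714) and 0.20 against TLR3-MSC (interval -0.02 to 0.42; limma, adjusted p = 0.890; exact permutation test, two-sided, p = 0.0635). Without STING-MSC replicate 3 both differences, 0.23 and 0.25, had an unadjusted p under the threshold, and the latter also without STING-MSC replicate 5 or TLR3-MSC replicate 3 (0.24 each). Of its exon bases, 5.06% are shared with Acp2 on the opposite strand.

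Rora spread widely within each group. It ranged from 2119 to 2940 normalized counts in control, 1299 to 3013 in MSC, 1703 to 3498 in TLR3-MSC and 1613 to 3605 in STING-MSC joints. The difference with the smallest p was 0.33, between TLR3-MSC and MSC (95% interval -0.19 to 0.85; limma, adjusted p = 0.978), and the intervals allowed from 0.578-fold to 1.80-fold over the 6 comparisons.

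The exporters Abca1 and Abcg1, which move cholesterol out of cells to lipoproteins, also did not pass the test in any comparison. Abca1 read 2706, 2593, 3194, 3444 and 2450.1 in control and 3115, 3666, 3083, 1962 and 3760.0 in MSC joints. In TLR3-MSC joints it read 2974, 3574, 3380, 3016 and 3047, and in STING-MSC joints 2865, 2997, 2959, 2829 and 2107. Here 4 of 5 STING-MSC joints lay under all TLR3-MSC joints, with a single overlapping joint. The log2 difference of STING-MSC from TLR3-MSC was -0.22 (95% interval -0.54 to 0.09), with an exact permutation p of 0.0159, two-sided, and in limma an unadjusted p of 0.148 and an adjusted p of 0.890. Against control it was -0.06 (interval -0.38 to 0.25). Leaving out MSC replicate 4, the lowest joint, took the difference between MSC and control to 0.25 and that between STING-MSC and MSC to -0.31, each with an unadjusted p under the threshold. Abcg1 had means of 1162 ± 89.8, 1206 ± 180.1, 1159 ± 189 and 1248 ± 250.4 in control, MSC, TLR3-MSC and STING-MSC joints (SD, n = 5). Its differences lay between -0.06 and 0.10 on the log2 scale, and its intervals between 0.787-fold and 1.31-fold.

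**Figure D2:**
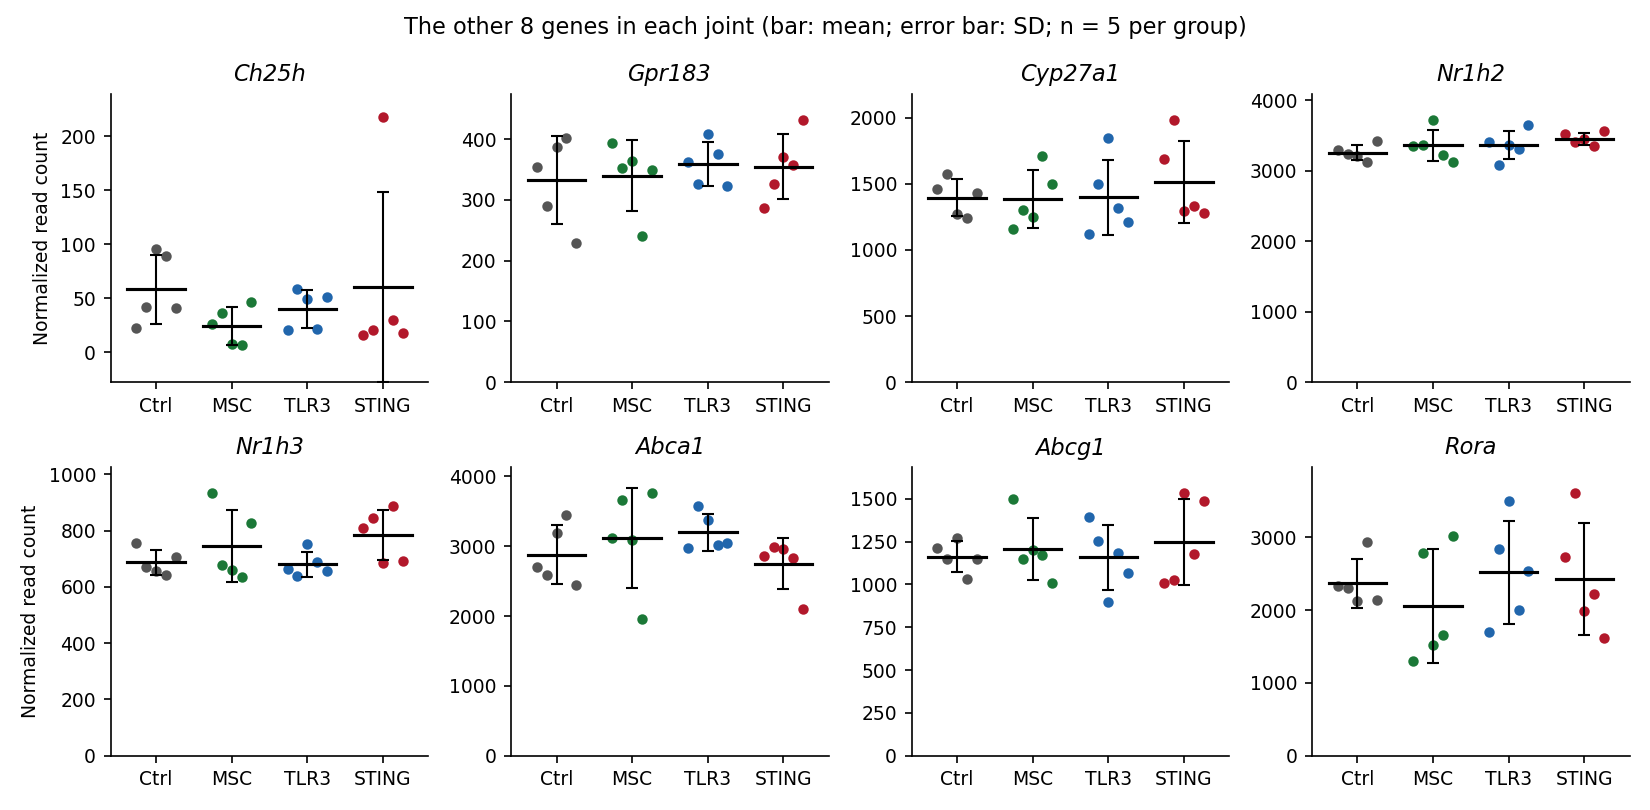
Normalized read counts (y axis) of the other 8 genes in each joint, for control (Ctrl), MSC, TLR3-MSC and STING-MSC groups, with the group mean (bar) and SD (error bar, n = 5). The groups overlap in every panel, and a single STING-MSC joint stands at 217.9 for Ch25h.

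Counted together, 0 of the 8 genes besides Cyp7b1 had an unadjusted limma p of at most 0.05 in any comparison. The background was 8.55% of all genes for MSC with control (1265 genes), 3.58% for TLR3-MSC with control (530) and 12.2% for STING-MSC with control (1808). It was 4.94% for STING-MSC with MSC (731), 3.88% for TLR3-MSC with MSC (574) and 2.57% for STING-MSC with TLR3-MSC (380). In the test over all 4 groups it was 6.42% (950), again with 0 of the 8 genes. At these shares, a count of 0 among 8 genes does not set them apart from other genes. With the adjusted p held to 0.05 or less, limma gave 1 gene (0.00676%) for MSC with control and 0 (0%) in each other comparison and in the test over 4 groups. On the recovered reads, edgeR called 15, 0, 0, 0, 1 and 0 genes in the 6 comparisons in the above order and DESeq2 108, 3, 85, 28, 7 and 2, none of them among the 8 genes, of which neither tool called any at an unadjusted p of 0.05. The smallest adjusted p of the 8 genes was 0.488, for Nr1h3 in STING-MSC against control. Their median log2 difference was 0.04, 0.02, 0.08, 0.08, 0.07 (with Cyp7b1, over 9 genes) and 0.01 in the 6 comparisons in that order, where the median over all genes was -0.04, -0.01, 0.01, 0.02, 0.03 and 0.02. Of 49 exact permutation tests, whose smallest possible p is 0.00794, 2 gave a p of at most 0.05, those of Nr1h2 and Abca1 above. These exact p-values were not adjusted for the 49 tests. The share of all genes at that exact p was not computed, so the count of 2 does not set these genes apart.

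**Figure D3:**
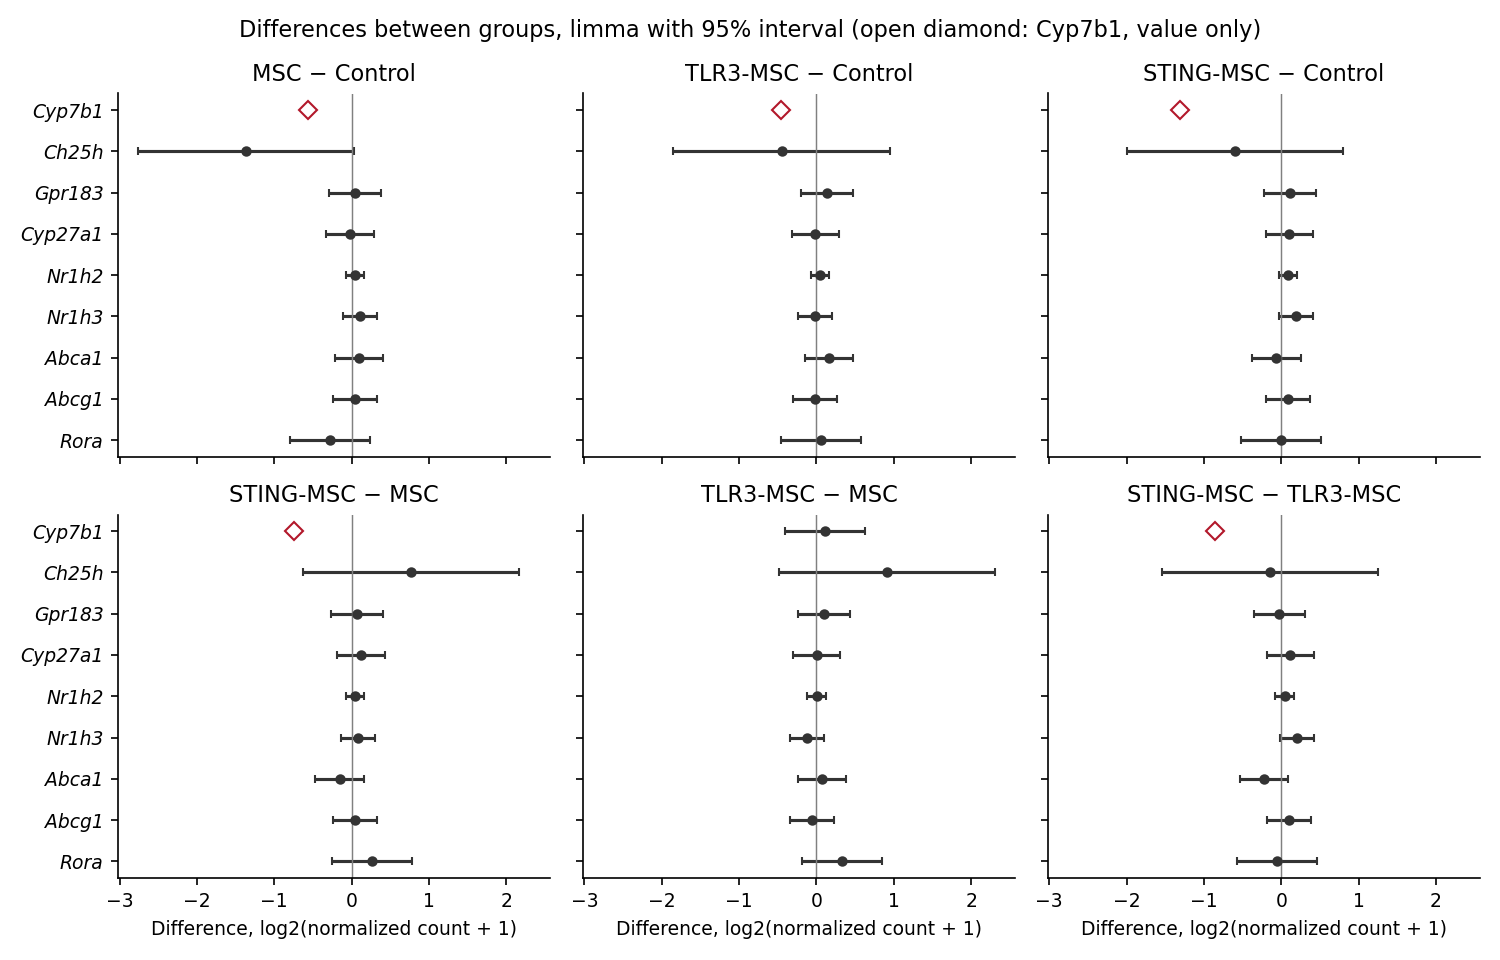
Difference between groups in log2(normalized count + 1) (x axis) for each gene (y axis) in the 6 comparisons, with limma's 95% interval (bars). Open diamonds give Cyp7b1 where its value is a description without a test, down to -1.31 in STING-MSC against control, and every interval drawn includes 0.

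Compared per kilobase of exon, the levels of the 9 genes spanned a wide range. Over the 20 joints Nr1h2 was highest, at 969 ± 48.9 normalized counts per kilobase (SD, n = 20), followed by Cyp27a1 at 428 ± 70.6 and Abca1 at 243 ± 38.4. Rora (162 ± 44.6), Abcg1 (155 ± 22.7) and Nr1h3 (143 ± 17.7) did not differ beyond their spread, and Rora was above Abcg1 in 11 of 20 joints. Gpr183 followed at 106 ± 16.3 and was under Nr1h3 in all 20 joints. Ch25h stood at 33.1 ± 33.9 and Cyp7b1 at 1.496 ± 0.556, with no overlap between the latter and any other gene at these exon lengths. The GENCODE vM39 gene that gave the length of Cyp7b1 reaches down to 18117411 on chromosome 3, past the 18126114 of the deposited values. Reads in these extra bases may not have been counted. The level of Cyp7b1 per kilobase may therefore be understated, and its separation from Ch25h is uncertain. On this per-kilobase scale the control joints held 2.16 ± 0.39 and the STING-MSC joints 0.839 ± 0.266 normalized counts of Cyp7b1 (SD, n = 5).

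Several of the genes varied from joint to joint with the level of muscle or immune cell transcripts. These relations were examined after the values had been seen, over 32 pairs of 1 of the 8 genes besides Cyp7b1 with 1 of 4 marker lists, and 7 had an adjusted p of at most 0.05 for Pearson's r (100000 permutations, Benjamini-Hochberg over the 32). The share of all genes related to these lists in this way was not computed, so the count of 7 does not set these genes apart from others. The counts assigned to Cyp27a1, which may hold reads of the muscle gene Prkag3, rose with the mean log2 level of skeletal muscle markers (r = 0.87, permutation p = 1e-05, the smallest these permutations can give, adjusted p = 0.00032; rho = 0.88, adjusted p = 0.00032), and r was 0.81 without the 2 joints farthest from the median. Rora did so too (r = 0.80, permutation p = 5e-05, adjusted p = 0.0008; rho = 0.76, adjusted p = 0.0024; r = 0.75 without 2 joints). Abcg1 went the other way (r = -0.70, permutation p = 0.00076, adjusted p = 0.00602; rho = -0.69, adjusted p = 0.00813; r = -0.66 without 2 joints). Gpr183 followed macrophage markers (r = 0.68, permutation p = 0.00094, adjusted p = 0.00602; rho = 0.73, adjusted p = 0.00512; r = 0.66 without 2 joints). Rora was inversely related to neutrophil markers (r = -0.73, permutation p = 0.00032, adjusted p = 0.00341; rho = -0.71, adjusted p = 0.00528; r = -0.71 without 2 joints). The other relations past the threshold were Cyp27a1 with macrophage markers (r = -0.58, permutation p = 0.00771, adjusted p = 0.0393; rho = -0.64, adjusted p = 0.015; r = -0.51 without 2 joints) and Abcg1 with neutrophil markers (r = 0.57, permutation p = 0.00859, adjusted p = 0.0393; rho = 0.47, adjusted p = 0.115; r = 0.60 without 2 joints). After subtracting group means, r was 0.88 for Cyp27a1, 0.81 for Rora and -0.75 for Abcg1 with muscle markers and 0.67 for Gpr183 with macrophage markers, so these relations were present within groups. The points share their libraries, and all values in a joint share its size factor.

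For Cyp7b1 the same coefficients are a description without a test, since the joints that set them are the ones that chose the gene. Over the 20 joints r was 0.11 with muscle, -0.32 with macrophage, -0.53 with neutrophil and 0.50 with endothelial markers. With group means subtracted these were 0.28, -0.29, -0.25 and 0.21.

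**Figure D4:**
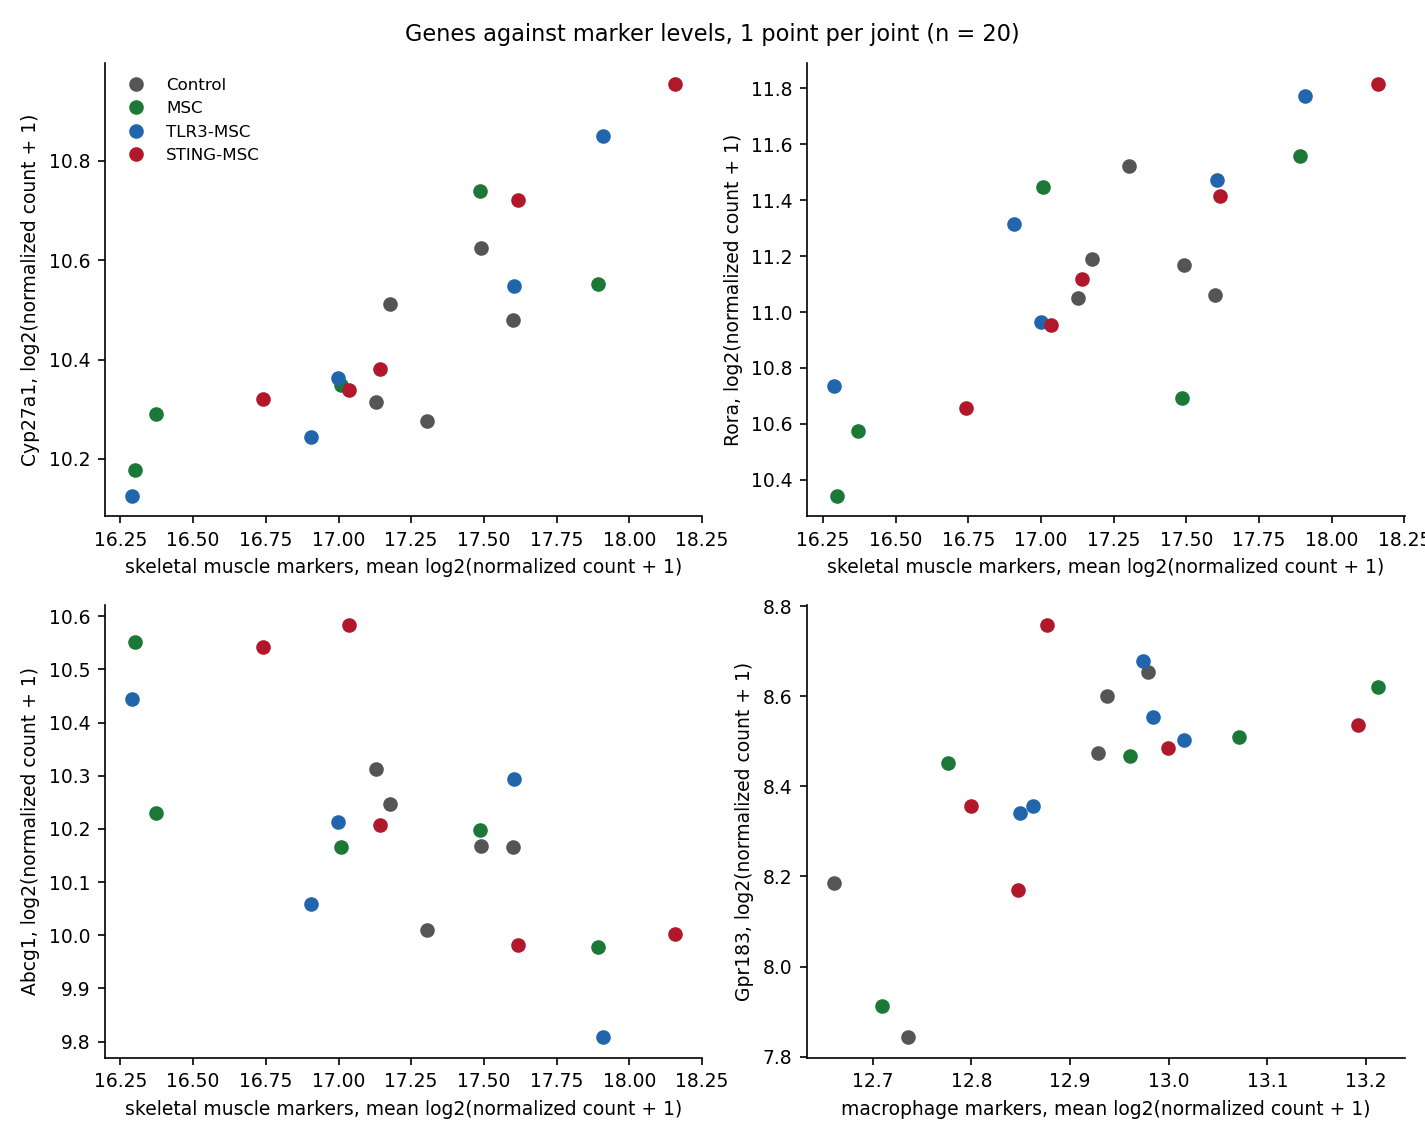
Level of Cyp27a1, Rora and Abcg1 against the mean level of 7 skeletal muscle markers and of Gpr183 against 8 macrophage markers, all as log2(normalized count + 1), with 1 point per joint coloured by group (n = 20). Cyp27a1 (r = 0.87) and Rora (r = 0.80) rise along the muscle axis, Abcg1 declines (r = -0.70), and the 4 groups are spread along each axis.

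The genes whose pattern over the 20 joints was most like that of Cyp7b1, by Pearson's r of log2 values and without a test since they were picked for it, were Fzd10 (r = 0.75), Zfp974 (0.75), Tceal3 (0.73), Syt17 (0.72) and Bcl9 (0.72). Fzd10, a Wnt receptor, averaged 46.3 ± 9.59 normalized counts in control and 17.8 ± 13.5 in STING-MSC joints, and Bcl9, a Wnt pathway coactivator, 668 ± 74.0 and 534 ± 48.5. Without the 2 joints farthest from the median, r was 0.49 for Fzd10 and 0.63 for Bcl9. With group means subtracted, the most alike genes were Rufy3 (r = 0.75), Hspa1b (0.72), Rundc1 (0.71), Fzd3 (0.68) and Fbxo27 (0.67), and no gene was in both sets. Hspa1b has a nearly identical copy, Hspa1a, so its counts are uncertain. No other gene of the oxysterol axis was as close to Cyp7b1 over the 20 joints, where r ran from -0.46 for Nr1h2 to 0.28 for Abca1.

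Beyond these genes, 99 of 114 further sterol genes in 6 lists were measured, and 0 passed an adjusted limma p of 0.05 in any comparison. At an unadjusted p of at most 0.05, 6 of the 99 were higher and 8 lower in STING-MSC than in control joints, 2 higher and 5 lower for MSC with control, and 3 higher and 2 lower for TLR3-MSC with control. Between the cell-treated groups it was 3 and 3 for STING-MSC with MSC, 1 and 2 for TLR3-MSC with MSC, and 0 and 2 for STING-MSC with TLR3-MSC. Among all genes the corresponding shares in either direction are those given above, 12.2% for STING-MSC with control and 8.55% for MSC with control. Over the 99 genes the median log2 difference was -0.04 for STING-MSC and -0.05 for MSC against control, beside 0.01 and -0.04 over all genes.

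In cholesterol synthesis (21 of 21 measured), STING-MSC joints had 1 gene higher and 3 lower than control at that threshold. Mvk, mevalonate kinase, stood at 484 ± 27.0 normalized counts in control, 389 ± 61.3 in MSC, 416 ± 61.5 in TLR3-MSC and 371 ± 52.2 in STING-MSC joints (SD, n = 5), a log2 difference of -0.39 ± 0.13 (SE) for STING-MSC against control (limma, adjusted p = 0.307). Mvd, which acts later in the same mevalonate route, differed by 0.31 ± 0.12 (limma, adjusted p = 0.363) in the opposite direction, with 513 ± 73.6 in control and 632 ± 58.5 in STING-MSC joints. The other 2 lower genes were Hmgcs1 and Dhcr7, which act at the start and at the end of the pathway.

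In SREBP control and lipoprotein uptake (14 of 15 measured), 1 gene was lower in MSC than in control joints at that threshold, Srebf1, a transcription factor of lipid synthesis (-0.25 ± 0.11; limma, adjusted p = 0.562). Among the other LXR target and efflux genes (15 of 18 measured), the desaturase Scd2 was at 5277 ± 1765 normalized counts in control and 3159 ± 374 in STING-MSC joints (SD, n = 5), a log2 difference of -0.68 ± 0.20 (SE; limma, adjusted p = 0.290). It differed by -0.45 in MSC and by -0.44 in TLR3-MSC joints, each at an unadjusted p of at most 0.05. The transporter Abca7 differed by 0.38 ± 0.14 between STING-MSC and control (limma, adjusted p = 0.336). Apoc1 and Scd1 were higher in TLR3-MSC than in control joints at the unadjusted threshold, and the adjusted p of the list was at least 0.9997 in that comparison.

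Among the other oxysterol and bile acid enzymes (11 of 20 measured), Hsd11b1, which reduces 7-ketocholesterol as well as cortisone, stood at 907 ± 212 normalized counts in control and 1378 ± 203 in STING-MSC joints (SD, n = 5). The log2 difference was 0.62 ± 0.21 (SE; limma, adjusted p = 0.327). The steroid 5-alpha-reductase Srd5a1 differed by -0.45 ± 0.21 between STING-MSC and TLR3-MSC (limma, adjusted p = 0.890). Among the other oxysterol receptors and their partners (12 of 14 measured), the coactivator Ncoa1 averaged 1381 ± 107.5 in control and 1670.4 ± 110.8 in STING-MSC joints, a log2 difference of 0.28 ± 0.08 (SE; limma, adjusted p = 0.291), and the corepressor Ncor1 differed by 0.17 ± 0.07 (limma, adjusted p = 0.364). Ptch1, the Hedgehog receptor, was lower in MSC and in STING-MSC than in control joints at the unadjusted threshold.

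Intracellular sterol transport and storage (26 of 26 measured) held the smallest p over the 4 groups. Lcat, the plasma enzyme that esterifies cholesterol on lipoproteins, averaged 61.1 ± 9.54 normalized counts in control, 76.2 ± 15.7 in MSC, 40.4 ± 6.50 in TLR3-MSC and 48.3 ± 7.95 in STING-MSC joints (SD, n = 5). Every TLR3-MSC and STING-MSC joint, at most 55.1, lay under every MSC joint, at least 58.0. Lcat was named for its small p over the 4 groups, so this separation is a description. The share of all genes so separated was not computed. The log2 difference was -0.89 ± 0.19 between TLR3-MSC and MSC (SE; limma, adjusted p = 0.615) and -0.64 ± 0.19 between STING-MSC and MSC (limma, adjusted p = 0.687), and the test over 4 groups had an adjusted p of 0.343. Gramd1a, a carrier that moves cholesterol from the plasma membrane to the endoplasmic reticulum, averaged 2113 ± 273 in control and 2667 ± 253 in MSC joints, a difference of 0.34 ± 0.08 (limma, adjusted p = 0.185), and was at 2236 ± 50.1 in TLR3-MSC and 2305 ± 171 in STING-MSC joints.

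**Figure D5:**
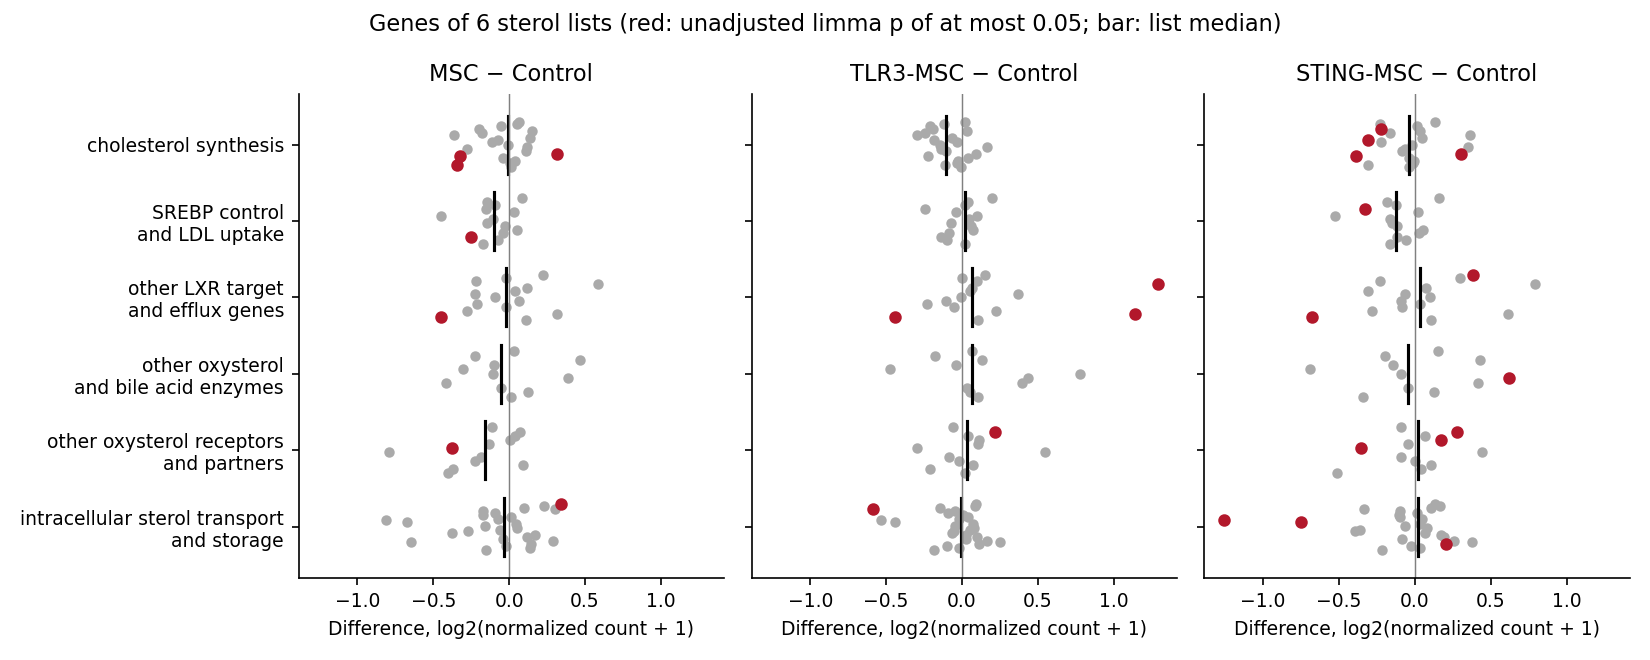
Difference from control in log2(normalized count + 1) (x axis) of each measured gene of the 6 sterol lists (y axis) for MSC, TLR3-MSC and STING-MSC joints, with red points for genes at an unadjusted limma p of at most 0.05 and a bar at the list median. The red points, 7, 5 and 14 of 99 in the 3 panels, lie on both sides of 0.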

How the data were processed

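Bulk RNA sequencing libraries of 20 mouse knee joints were analysed, in 4 groups of 5 joints taken from the sample labels. The authors enriched polyadenylated RNA, aligned reads to GRCm39 with STAR (version 2.7.3a) and counted them per gene with HTSeq. The deposited values are a normalized signal, that is read counts that the authors divided by a median-ratio size factor per joint, for 14793 genes. A filter on low counts and the strand setting are not given in the sources used here. The paper's methods give 8 weeks after surgery as the time of harvest and its results give 24 h after injection, so the interval from the last injection is uncertain.

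Whole reads were recovered from the value of 1 read in each joint (0.670 to 1.34), with 99.8% to 99.9% of values within 0.1 of a whole number, and no gene had a mean under 9.40. Groups were compared with limma (version 3.58.1, R 4.3.3) with a trend on log2(normalized count + 1), fitted over all genes and 20 joints, with Benjamini-Hochberg adjustment over all genes, since the deposited values are not counts. Single genes were compared with exact two-sided permutation tests over the 252 regroupings of 5 joints against 5. Values of Cyp7b1 in comparisons that share the STING-MSC or control joints were not tested. The members and gene lists were chosen with earlier results of these data known. Named beside the members were the 5 genes most like Cyp7b1 by each measure and, in each sterol list, the 2 genes with the smallest limma p over the 4 groups; other genes were named after their values were seen. The result of 1 gene that this rule names is not reported here.

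The recovered reads were also tested with DESeq2 (version 1.42.0) and with the quasi-likelihood test of edgeR (version 4.0.16). Further alternatives to the limma fit used a pseudocount of 0.5 or 5, a mean of at least 20, quantile normalization, the 2 compared groups alone or a replicate block, and left out single joints. The tests were tested on simulated data. Exons were merged per gene from GENCODE vM39, and promoter windows were read from the GRCm39 genome for 14770 genes.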

Additional observations from a re-analysis of the deposited data

Results flagged for a closer look

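Of 36 groups of 5 joints, 1 for each gene and group, 4 held a joint that stood apart from the others, by the size of its gap to the nearest joint relative to the group's whole range (Dixon's test at its 95% critical value). Chance alone gives this in about 1 in 20 groups. Ch25h was at 217.9 normalized counts in STING-MSC replicate 3, where the next highest joint of the group was at 30.0. Gpr183 was at 239.8 in MSC replicate 4, and the next lowest joint was at 349. Abca1 was at 2107 in STING-MSC replicate 5, under a next lowest joint at 2829. Rora was at 2940 in control replicate 4, above a next highest joint at 2334. Why these joints differ was not tested.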

How the results depend on the processing

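For Cyp7b1, the log2 difference between STING-MSC and control was -1.31 and lay between -1.45 and -1.20 when single joints were left out. It was -1.04 with a pseudocount of 5, -1.24 with quantile normalization, -1.37 with edgeR, -1.38 with DESeq2 and -1.36 as the ratio of group means, and a minimum mean of 20 removed the gene. Over all genes and comparisons of the oxysterol axis, 956 of 967 alternative values were counted as unchanged and 11 passed an unadjusted p of 0.05 that they had not passed before. For tested values, unchanged meant no pass of that p and a shift smaller than the SD between joints, which allows a change of sign. The 967 include the untested values of Cyp7b1, for which unchanged meant the same sign and such a small shift, with no p. The difference of Ch25h between STING-MSC and control, -0.59 with limma, was 0.05 with edgeR and 0.06 with DESeq2. The count of tested oxysterol genes at an unadjusted p of at most 0.05 was 0 in all 6 comparisons. It became 1 (Ch25h) for MSC with control when only the 2 groups were fitted. Without single joints it ranged from 0 to 1 for MSC with control (1 without Control replicate 1 or MSC replicates 2, 4 or 5), for STING-MSC with MSC (1 without MSC replicate 4) and for STING-MSC with TLR3-MSC (1 without TLR3-MSC replicate 3 or STING-MSC replicates 3 or 5), and from 0 to 2 for STING-MSC with control (2 without STING-MSC replicate 3). The background of all genes depended more on the processing. At an adjusted p of at most 0.05, limma's count of 1 for MSC with control became 0 with only the 2 groups, 15 with edgeR and 108 with DESeq2, and limma's 0 elsewhere became, with DESeq2, 3 for TLR3-MSC with control, 85 for STING-MSC with control, 28 for STING-MSC with MSC, 7 for TLR3-MSC with MSC (edgeR 1), 2 for STING-MSC with TLR3-MSC and 99 over the 4 groups (edgeR 2). Without single joints these counts ranged from 1 to 46 for MSC with control (46 without MSC replicate 2, 26 without Control replicate 1, 6 without MSC replicate 5, 2 without MSC replicate 1), 0 to 1 for TLR3-MSC with control, 0 to 4 for STING-MSC with control, 0 to 1 for TLR3-MSC with MSC and 0 to 3 over the 4 groups. At an unadjusted p of at most 0.05, 574 genes for TLR3-MSC with MSC became 343 with only the 2 groups, 380 for STING-MSC with TLR3-MSC became 1258 with only the 2 groups, 605 with edgeR and 676 with DESeq2, and 950 over the 4 groups became 1438 with DESeq2. Without single joints these counts ranged from 852 to 2468 for MSC with control (highest without MSC replicate 2, and 1926 without MSC replicate 5), 301 to 810 for TLR3-MSC with control (810 without Control replicate 1, 301 without TLR3-MSC replicate 4), 868 to 2329 for STING-MSC with control (868 without Control replicate 4, 1105 without Control replicate 3, 1023 without STING-MSC replicate 5), 363 to 1477 for TLR3-MSC with MSC, 144 to 758 for STING-MSC with TLR3-MSC and 622 to 1653 over the 4 groups. The cause was not tested. Same-numbered joints did not deviate together (mean r of -0.03 over 30 pairs, 11 of them over 0.1), and with the replicate number as a block 1 gene passed the adjusted threshold for MSC with control, 1597 passed the unadjusted one for STING-MSC with control and the count of oxysterol genes stayed 0. With Cyp7b1 at 7 to 29 reads per joint in control and STING-MSC, depth limits the precision of its values.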
